A study of Homo sapiens with 6 samples.

Results

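The genes described here are targets of p53 in A-498 cells after treatment with zebularine. A-498 is a human line established from a kidney cancer, a renal cell carcinoma. Of 29 listed target genes, 24 were measured by 37 of the 22277 probe sets, chosen because the array annotation gave exactly 1 symbol and that symbol was in the list. BTG2, FDXR, TP53INP1 and RRM2B were not analysed here, and BBC3 was left out because its probe set carries more than 1 symbol. Each of 3 numbered experiments gave 1 array from untreated cells and 1 from cells kept with 1000 µM zebularine for 120 h, in the same medium, with splitting during the treatment. The sample titles call the replicates biological. Nothing states that they came from separate cultures, so p-values measure the spread between these arrays, part of which may be technical, and all of them describe 1 cell line. The study compared treated with untreated cells to follow overall expression changes under a DNA methyltransferase inhibitor.

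The protein p53 is a transcription factor that accumulates after DNA damage and other stress and binds response elements near its target genes. Its targets halt the cell cycle, repair DNA, or prime and carry out cell death, and some of them, MDM2 above all, feed back to restrain p53. Zebularine is a cytidine analogue that inhibits DNA methyltransferases.

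The median signal of an array lay between 118 and 141 units. Maxima were lower on the pair of arrays of experiment 3, at 31176 and 28720.5, against 66290 to 71174 on the other 4. The ratio of 3' to 5' signal of ACTB, a sign of RNA integrity and labelling, ran from 1.71 to 3.10 on untreated and from 1.49 to 5.25 on treated arrays, with 5.25 on treated array 1. Its part in the results was not tested. Markers of renal epithelium and renal carcinoma, including PAX8, KRT8, KRT18 and VIM, were bright enough to test for 6 genes. One of the 6, the kidney cadherin gene CDH6, fell from 1407, 2209 and 584 to 174.5, 102.8 and 209 units (log2 difference -2.85 ± 0.42; limma, adjusted p = 0.0206), and its other probe sets had lower means too. The part of CDH6 in the results was not tested. None of 5 leukocyte, 3 endothelial and 4 muscle or fibroblast markers passed the filter on dim signals. Their probe sets summed to 58.7 to 352 (leukocyte), 131 to 219 (endothelial) and 233 to 422 (muscle or fibroblast) units on untreated arrays. On treated arrays the sums were 191 to 197, 189 to 261 and 228 to 353.

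After zebularine the p53 targets did not move as 1 group. TP53I3 and FAS, a pair of genes of the death programme, were higher in every experiment, by 0.94 to 1.39 on the log2 scale, while other death genes such as BAX and PHLDA3 were not. The median log2 difference over the 24 genes was 0.10, against -0.01 over all 7938 tested genes. Within the experiments that median was 0.21, 0.26 and 0.05, in the order 1, 2 and 3. With all experiments it was 0.0028 without untreated array 2 and 0.22 without untreated array 1, and 0.24 where the probe sets of a gene were averaged. Differences were taken as zebularine minus untreated on log2(signal + 16.34), where the added constant keeps dim signals from dominating. A probe set was tested where it reached 78.6 signal units on at least 3 arrays, and each gene is represented by its tested probe set with the highest mean signal. All 24 genes and 34 of the 37 probe sets passed that filter.

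In limma, with p-values adjusted by Benjamini-Hochberg over the full set of 13545 tested probe sets, 0 of the 34 probe sets and 0 of the 24 genes had an adjusted p under 0.05, the threshold for a call. Over all tested probe sets the test called 0.62%, and over all tested genes 0.642%. At an unadjusted p under 0.05 there were 8 probe sets and 4 genes of the list, against 12.6% of all probe sets and 13.1% of all genes. Arrays with the same experiment number deviated together, so the experiment was also used as a block, which compares the arrays within each experiment. With the block the same test called 5 of the 34 probe sets, all higher, against 1.9% of all probe sets called higher. They were the 4 probe sets of FAS, which share 1 gene, and the 1 of TP53I3. In genes that is 2 of 24, against 2.17% of all genes called higher. At an unadjusted p under 0.05 the blocked test had 5 of the 24 genes, against 21.3% of all genes. Without experiment 1 the blocked test called 1 of 34 probe sets and 0 of 24 genes, and without experiment 2 or 3 there were 7 and 4 probe sets. The differences of FAS and TP53I3 were as large without experiment 1, at 1.10 and 1.21 (limma, blocked, adjusted p = 0.0625 and 0.0687, from 4 arrays).

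Of the 24 genes, 7 had the brighter signal after treatment in each of the 3 experiments (PPM1D, FAS, TP53I3, RPS27L, DDB2, POLH and GDF15), against 21.5% of all tested genes. BAX and TRIAP1, or 2 of 24, were lower in all 3, against 22.0% of all tested genes. For FAS, TP53I3 and POLH every treated array stood above every untreated one. Those 3 of 24 genes compare with 9.32% of all tested genes, a share near the background.

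**Figure D1:**
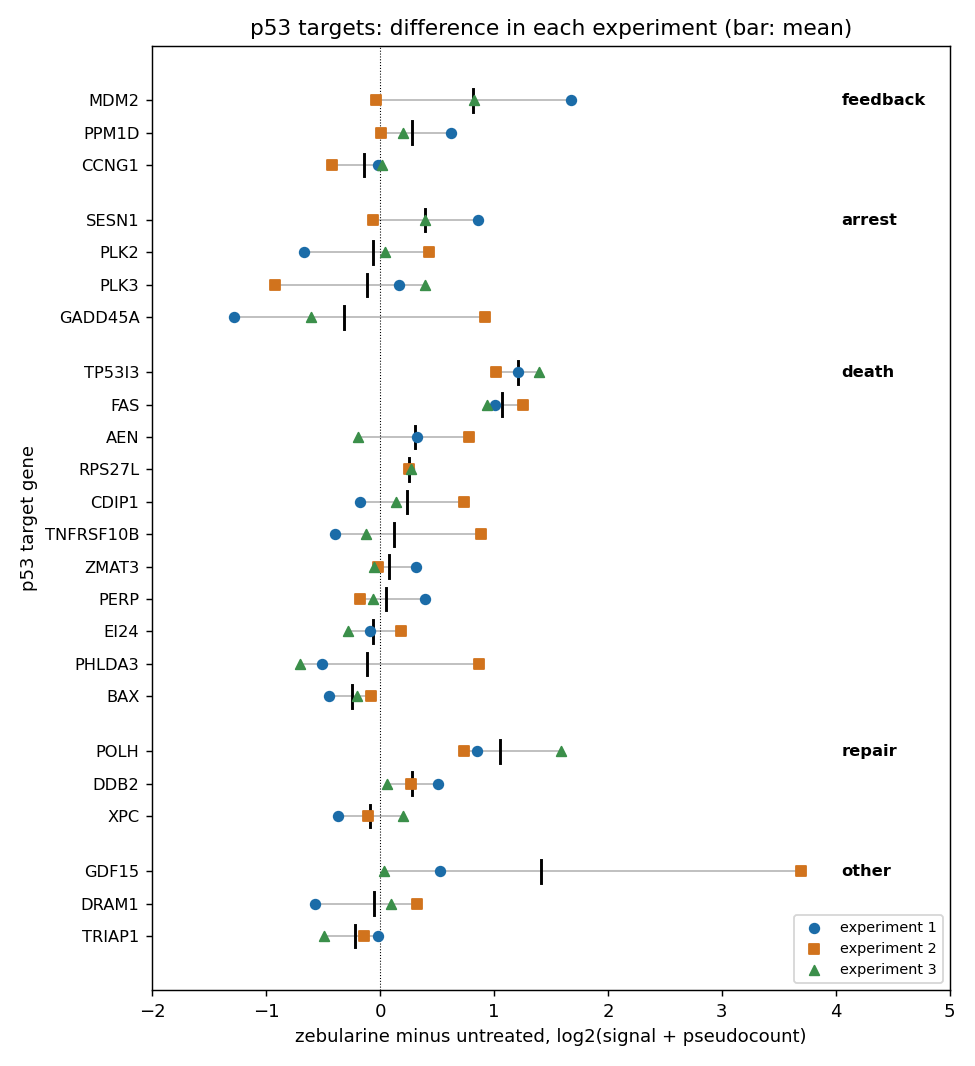
Difference between the zebularine and the untreated array in each experiment, on the log2(signal + 16.34) scale, for 24 p53 target genes grouped by role. Points are the 3 experiments and black bars their mean; TP53I3, FAS and POLH lie to the right of 0 in all 3, and GDF15 reaches 3.69 in experiment 2.

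Among the genes that feed back on p53, MDM2 encodes the ubiquitin ligase that marks p53 for destruction. MDM2 stood at 206, 632 and 167 signal units on untreated arrays 1, 2 and 3, and at 692.5, 617 and 307 on the treated ones. It was higher in experiments 1 and 3 and near level in experiment 2. Untreated array 2 lay above treated arrays 2 and 3, so the groups overlapped. The log2 difference was 0.82 ± 0.45 (limma, adjusted p = 0.486 unblocked and 0.153 blocked). Every ± in the text gives the standard error of the unblocked fit, also where a blocked p-value stands beside it. PPM1D, a phosphatase that turns off damage signalling, stood at 491, 498.2 and 699 on untreated and 763, 500.6 and 808 on treated arrays. Its treated array was higher by 0.62 in experiment 1 but by 0.01 in experiment 2, and the groups overlapped (difference 0.28 ± 0.28; limma, adjusted p = 0.729). CCNG1, cyclin G1, which recruits a phosphatase to MDM2, differed by -0.14 ± 0.28.

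The 5 probe sets of MDM2 did not give 1 answer. Besides the one above, whose design (a name ending in _x_at) can bind related transcripts, a second had differences of -0.15, 0.28 and 1.70, and another lay near 0 at 0.11, -0.00 and -0.14. The last 2 were too dim to test. One was higher by 1.28, 0.71 and 2.84, and the other differed by -1.33, 0.08 and 0.43.

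Arrest genes showed no shared direction, and 0 of 4 tested had the same sign in all 3 experiments. SESN1, sestrin 1, which restrains growth signalling through mTORC1, stood at 293.5, 358 and 257 on untreated and 545, 342 and 343 on treated arrays. It was higher in experiments 1 and 3, with overlap between the groups, and the difference was 0.40 ± 0.29 (limma, adjusted p = 0.617). GADD45A, which binds PCNA and cyclin-dependent kinase 1 and slows the cycle after damage, stood at 2331.5, 851.5 and 2349 on untreated and 949, 1630.5 and 1543 on treated arrays. Its untreated array 2 was the lowest of the 6, and the sign turned between experiments, with differences of -1.28, 0.92 and -0.60 (mean -0.32 ± 0.38; limma, adjusted p = 0.776). PLK2, a polo-like kinase of the centrosome cycle, differed by -0.07 ± 0.31. The stress-responsive kinase gene PLK3 had a pair of dim probe sets that disagreed, at -0.12 ± 0.52 and 0.62 ± 0.60.

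Genes of cell death, the largest role with 11 of the 24 tested genes, held both members that were called with the block. TP53I3, also called PIG3, encodes a quinone oxidoreductase linked to reactive oxygen species in p53-dependent death. It stood at 465, 559 and 354 on untreated and at 1101, 1149 and 956 on treated arrays. All 3 treated arrays lay above all untreated arrays, and the increases in the experiments were 1.21, 1.02 and 1.39. The mean difference was 1.21 ± 0.26 (limma, adjusted p = 0.0644 unblocked and 0.0121 blocked). Without untreated array 2 the unblocked test passed too, at a difference of 1.36 (limma, adjusted p = 0.0491).

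FAS encodes the CD95 death receptor, which triggers apoptosis when it binds its ligand. Its representative probe set stood at 1328, 912 and 1115 on untreated and 2687, 2201 and 2157 on treated arrays. The groups did not overlap, and the increases were 1.01, 1.26 and 0.94. The mean difference was 1.07 ± 0.25 (limma, adjusted p = 0.0804 unblocked and 0.0121 blocked). The other 3 probe sets of FAS gave 1.15 ± 0.26, 1.09 ± 0.28 and 0.94 ± 0.26 (limma, blocked adjusted p = 0.0118, 0.018 and 0.0364, unblocked 0.072, 0.111 and 0.16). In each of them every treated array also stood above every untreated one. The probe sets read the same gene on the same arrays, so they are not independent of one another. Those at 1.15 and 1.09 are of the kind (a name ending in _x_at) that can bind related transcripts.

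TP53I3 and FAS were the members called with the block, and their start-site sequences are shown with CpG dinucleotides, the sites that DNA methyltransferases act on, in capitals. Both are RefSeq windows of the GRCh38.p14 build, from 250 bases before to 50 bases after an annotated start, 5′ to 3′ on the gene's strand. That of TP53I3 lies at chr2:24084785-24085084 on the minus strand, and that of FAS, the first of 3 annotated for the gene, at chr10:88990548-88990847 on the plus strand.
TP53I3: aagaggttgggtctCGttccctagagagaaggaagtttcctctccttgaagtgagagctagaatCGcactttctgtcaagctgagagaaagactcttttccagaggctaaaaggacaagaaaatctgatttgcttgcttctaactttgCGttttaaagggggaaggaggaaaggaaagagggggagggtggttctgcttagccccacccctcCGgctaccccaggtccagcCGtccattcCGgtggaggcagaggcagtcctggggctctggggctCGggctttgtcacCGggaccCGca
FAS: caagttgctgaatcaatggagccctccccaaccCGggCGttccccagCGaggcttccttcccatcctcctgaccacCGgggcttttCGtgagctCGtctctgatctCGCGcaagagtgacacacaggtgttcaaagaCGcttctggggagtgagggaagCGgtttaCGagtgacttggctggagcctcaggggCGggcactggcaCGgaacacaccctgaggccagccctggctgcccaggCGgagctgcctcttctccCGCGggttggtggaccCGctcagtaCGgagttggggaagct
The TP53I3 window held 9 CpG and the FAS window 18, while the median was 27 over the 32 windows of 21 members and 14 over all 35116 windows of the RefSeq file. The ratio of observed to expected CpG was 0.415 and 0.605, against medians of 0.82 over the members and 0.579 over all windows. The other windows of FAS held 22 and 14 CpG. Their ratios of 0.779 and 0.477 lay on either side of the median of 0.579 over all windows, and both lay below that of the members. GDF15, with a large but uneven difference, had 11 CpG in its window, and POLH had 43. Methylation was not measured, and these counts describe the sequence only.

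TNFRSF10B, the death receptor for TRAIL, differed in sign between experiments at its brightest probe set, at -0.40, 0.89 and -0.12 (mean 0.12 ± 0.35; limma, adjusted p = 0.915). A second probe set, of the kind that can bind related transcripts, stood at 469, 393 and 220 on untreated and at 540, 550.2 and 563 on treated arrays. Its groups did not overlap, and the difference of 0.65 ± 0.30 did not pass (limma, adjusted p = 0.397 unblocked and 0.182 blocked). The last one, of the same kind, gave 0.54 ± 0.28.

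RPS27L, a ribosomal protein relative that modulates MDM2, had the most even difference over the 3 experiments of the genes described here. It stood at 12669, 12690.4 and 10138 on untreated and 15095.5, 15143 and 12209 on treated arrays, and the differences were 0.25, 0.25 and 0.27. The groups still overlapped, since treated array 3 lay below untreated arrays 1 and 2. The mean was 0.26 ± 0.24 (limma, adjusted p = 0.702 unblocked and 0.255 blocked). BAX, which permeabilises mitochondria, was lower in all 3 experiments at its brighter probe set by small amounts (mean -0.24 ± 0.29; limma, adjusted p = 0.783). Its second probe set was lower in 2 of 3.

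The other 6 death genes had mean differences between -0.11 and 0.30, and none had the same sign in all 3 experiments at its representative probe set. The exonuclease gene AEN differed by 0.30 ± 0.33 and CDIP1, which links p53 to TNF signalling, by 0.23 ± 0.31. ZMAT3, an RNA-binding zinc finger protein gene, differed by 0.08 ± 0.30, and PERP, a membrane protein gene of desmosomes and apoptosis, by 0.05 ± 0.25. EI24, an endoplasmic reticulum protein gene, differed by -0.06 ± 0.24 and PHLDA3, an inhibitor of AKT, by -0.11 ± 0.31. PHLDA3 differed by -0.51, 0.87 and -0.70 in the 3 experiments. GADD45A, TNFRSF10B, EI24 and PHLDA3 shared 1 order of signs, negative, positive and negative in experiments 1, 2 and 3 at their representative probe sets, although those of EI24 were small (-0.09, 0.19 and -0.28). The other probe sets of EI24 and TNFRSF10B did not show this order, and that of EI24 was higher by 0.27, 0.12 and 0.02. The order was picked out after the values were seen, and its share over all tested genes was not counted.

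**Figure D2:**
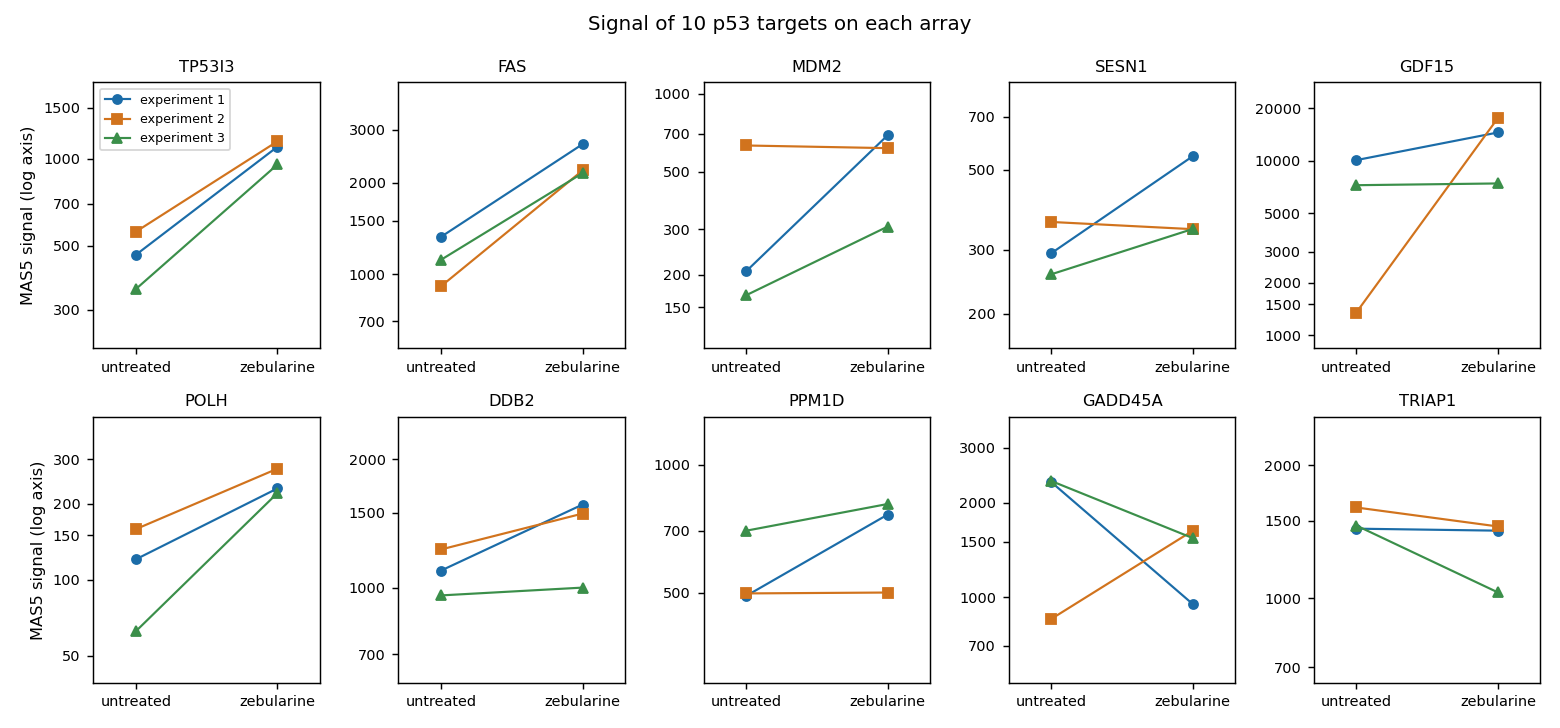
MAS5 signal, on log axes that differ between panels, of 10 p53 target genes on the untreated and zebularine arrays, with a line joining the pair of arrays of each experiment. The lines of TP53I3, FAS and POLH climb in all 3 experiments, while untreated array 2 is the lowest of the 6 for GDF15 (1348) and GADD45A (851.5). Among untreated arrays, array 2 is the lowest for 9 of the 24 members, against 39.2% of all tested genes.

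Of the DNA repair genes, POLH had the largest difference. POLH encodes DNA polymerase eta, which copies past ultraviolet lesions, and stood at 121, 159 and 62.6 on untreated and 230.2, 276 and 221 on treated arrays. The groups did not overlap, and the differences were 0.85, 0.74 and 1.59. The difference of 1.06 ± 0.38 did not pass (limma, adjusted p = 0.268 unblocked and 0.0943 blocked), and its 1 probe set is dim and of the kind that can bind related transcripts. DDB2, a subunit of the complex that recognises ultraviolet damage, stood at 1098, 1230.0 and 961 on untreated and 1566, 1492 and 1002 on treated arrays. It was higher by 0.51, 0.28 and 0.06, with overlapping groups (mean 0.28 ± 0.26; limma, adjusted p = 0.704 unblocked and 0.482 blocked). XPC, which also recognises damage for nucleotide excision repair, differed by -0.09 ± 0.27.

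DDB2 is shown because its second annotated start window holds a complete p53 response element by the consensus, that is, a pair of exact half-sites at most 13 bases apart. A half-site is the decamer of the p53 consensus, which equals its own reverse complement, so that 1 search covers both strands. The RefSeq window lies at chr11:47214724-47215023 (GRCh38.p14, plus strand), and capitals mark both half-sites, which start at bases 6 and 17 after the annotated start.
DDB2: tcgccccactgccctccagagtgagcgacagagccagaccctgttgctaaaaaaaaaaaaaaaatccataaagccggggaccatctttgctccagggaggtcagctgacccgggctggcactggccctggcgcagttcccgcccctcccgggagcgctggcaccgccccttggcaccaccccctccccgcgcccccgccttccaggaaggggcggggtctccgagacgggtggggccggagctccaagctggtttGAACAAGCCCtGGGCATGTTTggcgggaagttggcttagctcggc
Such a complete element was found in the windows of 10 of 27305 genes in the RefSeq file, DDB2 among them. At least 1 exact half-site was found for 7 of the 21 members with a window, or 33.3%, against 8.06% of all genes in that file. The list was made of p53 targets, so this is a description of the list and no independent evidence. The other 6 are shown with 10 bases on either side and the half-site in capitals, each 5′ to 3′ on the gene's strand.
SESN1: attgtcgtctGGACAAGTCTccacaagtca
PLK2: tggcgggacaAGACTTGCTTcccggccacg
FAS: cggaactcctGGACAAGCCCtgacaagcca
AEN: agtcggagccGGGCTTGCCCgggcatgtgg
EI24: cgtgcggcccGGGCATGCCCagtgcgggcg
RPS27L: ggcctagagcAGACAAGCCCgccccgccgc
They lie at chr6:109009018-109009047 (SESN1, minus strand), chr5:58460199-58460228 (PLK2, minus), chr10:88991299-88991328 (FAS, plus), chr15:88621296-88621325 (AEN, plus), chr11:125569457-125569486 (EI24, plus) and chr15:63157517-63157546 (RPS27L, minus). The log2 differences of these 6 genes and DDB2 ran from -0.07 for PLK2 to 1.07 for FAS, and TP53I3, POLH and GDF15 had no exact match in their windows. A match is a description of the letters, and where p53 binds was not measured.

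The remaining genes were GDF15, TRIAP1 and DRAM1. GDF15, a secreted stress cytokine, stood at 10087, 1348 and 7243 on untreated and 14535, 17611 and 7413 on treated arrays. Its untreated array 2 was far below the other 5, and the groups overlapped. The differences were 0.53, 3.69 and 0.03, and the mean of 1.42 ± 0.58 did not pass (limma, adjusted p = 0.345 unblocked and 0.124 blocked). Without untreated array 2 the difference was 0.53. This probe set is of the kind that can bind related transcripts. A second probe set of GDF15, too dim to test, differed by 1.53, 2.23 and 0.18. TRIAP1, an inhibitor of apoptosis at mitochondria, stood at 1438, 1605 and 1461.5 on untreated and 1423, 1454 and 1032 on treated arrays. It was lower in all 3 experiments, with differences of -0.01, -0.14 and -0.50 and overlapping groups (mean -0.22 ± 0.24; limma, adjusted p = 0.762). DRAM1, a lysosomal protein gene of autophagy, differed by -0.05 ± 0.33.

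**Figure D3:**
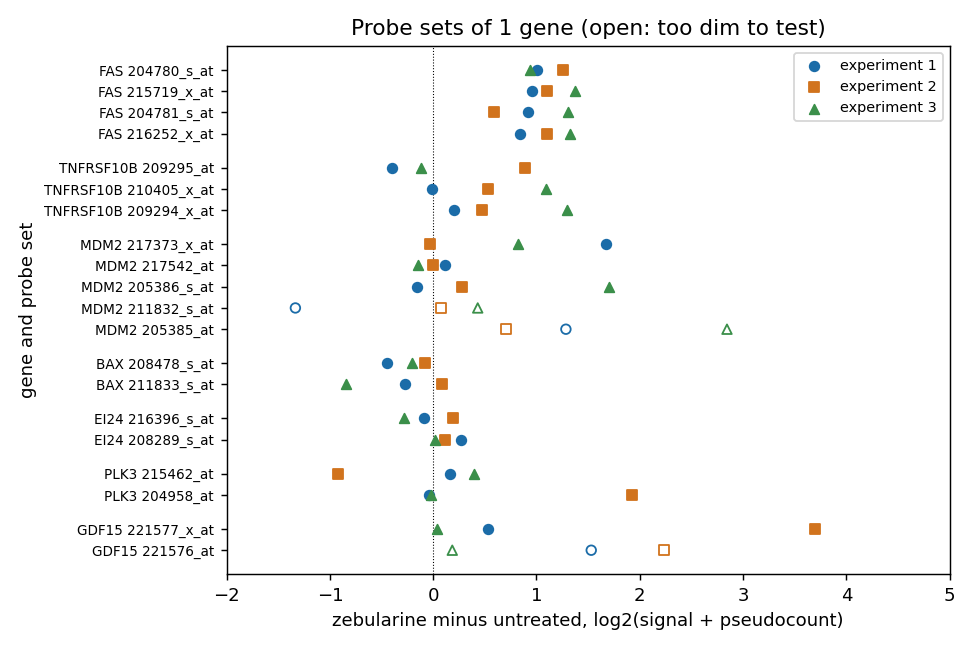
Difference between zebularine and untreated arrays in each experiment, on the log2(signal + 16.34) scale, for the 7 genes with more than 1 probe set; open symbols mark the 3 probe sets too dim to test. The 4 probe sets of FAS lie together to the right of 0, while those of MDM2 spread from -1.33 to 2.84.

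Upstream regulators of p53 were described by a further list of 25 genes, of which 18 were tested. Of the 18, limma called 0 in either fit, while 2 had an unadjusted p under 0.05 without the block and 4 with it, against 13.1% and 21.3% of all genes. Their median log2 difference was 0.12, and 4 (22.2%) were higher and 6 lower in all 3 experiments, against 21.5% and 22.0% of all tested genes. The members with the highest mean signal were RPL11, a ribosomal protein that binds MDM2, at -0.32 ± 0.24, and PRKDC, the catalytic subunit of DNA-dependent protein kinase, at -0.33 ± 0.25.

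Another list held 47 further p53 targets, of which 32 were tested, with a median difference of 0.11. In limma 0 were called without the block, where 11 had an unadjusted p under 0.05, against 13.1% of all genes. With the block 16 had an unadjusted p under 0.05, against 21.3% of all genes. Of these, 6 were called higher and 0 lower, against 4.45% of all genes called in either direction and 2.17% called higher. Of the 32, 12 (37.5%) were higher in all 3 experiments, against 21.5% of all tested genes, and 4 were lower. The 12 include PIDD1, which passed the filter through its treated arrays alone. The list was made with earlier results of these data known, so these counts describe it and are no independent evidence.

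PIDD1, a death domain protein that activates caspase-2, went from 25.0, 24.7 and 17.3 on untreated to 197, 114 and 218 on treated arrays. It passed the filter through its treated arrays alone, so its difference of 2.28 ± 0.54 and its blocked call are a description, and 5 of the 6 called genes remain without it. Its second probe set gave 0.59 ± 0.49 (limma, adjusted p = 0.661 unblocked and 0.535 blocked). TIGAR, which lowers glycolytic flux, went from 337, 513 and 479 to 517, 1300.3 and 1440.2 (1.15 ± 0.36; limma, adjusted p = 0.211 unblocked and 0.0243 blocked). Its groups did not overlap, although treated array 1 lay just above untreated array 2.

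CD82, a tetraspanin and metastasis suppressor, was higher by 1.19, 1.05 and 1.42, although its groups overlapped (1.22 ± 0.50; limma, adjusted p = 0.336 unblocked and 0.0145 blocked). Its probe set is of the kind that can bind related transcripts. SFN, the 14-3-3 sigma protein that holds cells in G2, went from 4049, 7267 and 5060.3 to 9978, 11471 and 8170 with no overlap (0.88 ± 0.27; limma, adjusted p = 0.202 unblocked and 0.0133 blocked). Another probe set of SFN gave 0.88 ± 0.27 (limma, adjusted p = 0.206 unblocked and 0.024 blocked), and a dimmer one 0.36 ± 0.30, which was not called. PCNA, the sliding clamp of replication, and PTP4A1, a phosphatase, differed by 0.93 ± 0.34 and 0.96 ± 0.27 (limma, blocked adjusted p = 0.0416 and 0.0193, unblocked 0.272 and 0.162). The other 3 probe sets of PTP4A1 gave 0.01, 0.50 and 0.57, and none was called (limma, blocked adjusted p = 0.981, 0.196 and 0.264).

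The members of that list with the highest mean signal were IGFBP3, which binds insulin-like growth factors, at -0.13 ± 0.37, and TGFA, a ligand of the EGF receptor, at 0.84 ± 0.40. CDKN1A, the p21 inhibitor of cyclin-dependent kinases and main arrest effector of p53, was picked out for its role after its values were seen. It stood at 3184, 1520 and 2218 on untreated and 3574, 3579 and 2883 on treated arrays, higher in all 3 experiments with overlapping groups (0.59 ± 0.29; limma, adjusted p = 0.421 unblocked and 0.15 blocked).

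**Figure D4:**
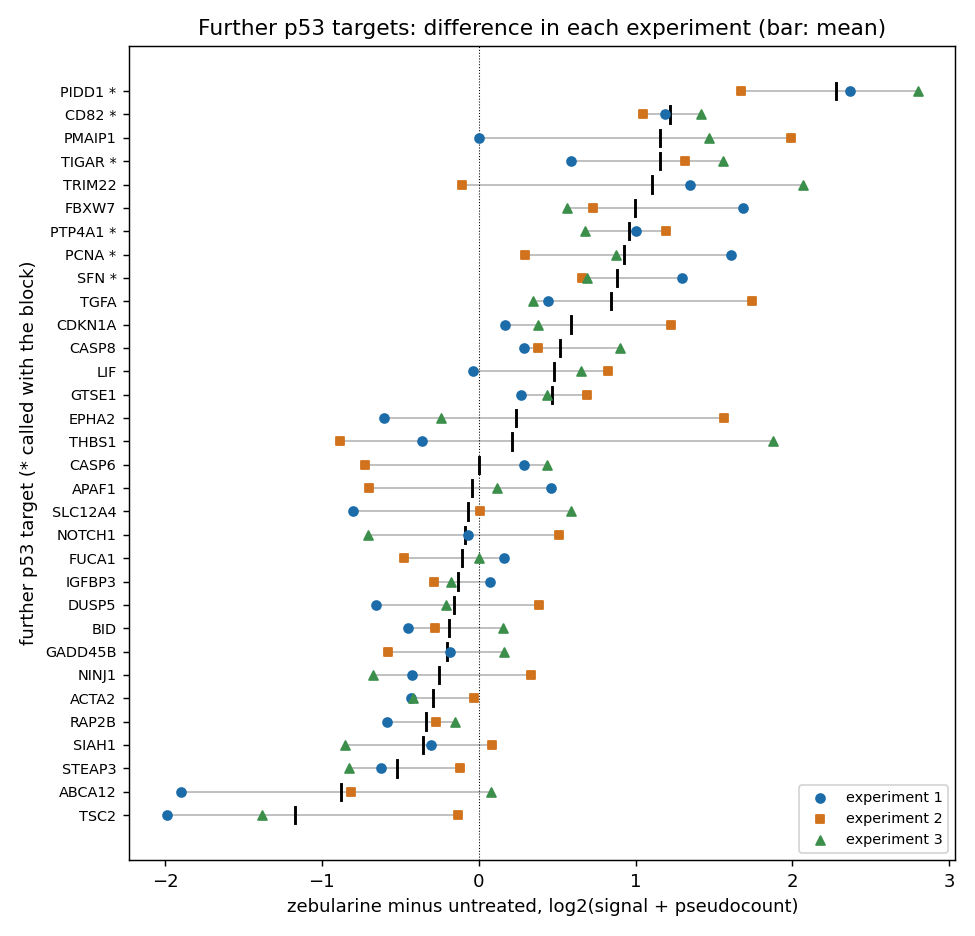
Difference between zebularine and untreated arrays in each experiment, on the log2(signal + 16.34) scale, for 32 further p53 targets ordered by their mean (black bars); asterisks mark the 6 called with the experiment as a block. PIDD1 lies furthest to the right with a mean of 2.28, and values of the list spread to both sides of 0.

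For TP53I3 and FAS, the genes outside the list with the most similar log2 signals were found by Pearson correlation over the 6 arrays, which include the difference between the groups. For FAS they were GOLIM4, THAP10, TOR1B, PDE6D and LRRFIP2, with r from 0.981 to 0.995. For TP53I3 they were METTL4, NCAPG2, CD48, NEMP1 and CAV1, with r from 0.98 to 0.987. These are the highest r among all tested genes outside the list, over only 6 arrays, so they are a description. Of the genes named, only THAP10 and NEMP1 were called with the block (limma, adjusted p = 0.0319 and 0.0427). GOLIM4, with the highest r, differed by 0.62 ± 0.47 (limma, blocked adjusted p = 0.51).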

How the data were processed

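RNA was measured on 6 Affymetrix arrays, 3 untreated and 3 with zebularine, grouped and numbered by the sample titles. The authors deposited linear probe set intensities, made with MAS5 per the submitters' processing notes. The sources used here do not give its version or settings, and detection calls were not used. The mean of the deposited intensities between the 2nd and 98th percentile was near 499 on each array. MAS5 subtracts mismatch signal, so dim values are noisy.

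From these values 62 control probe sets were left out, log2(signal + 16.34) was taken (a constant of 1 part in 8 of the overall median), and probe sets reaching 78.6 units (the 40th percentile) on at least 3 of 6 arrays were tested, 13545 of 22215. Only probe sets with 1 annotated symbol were named (19070). Fold changes on this scale understate those of dim genes, and the number of arrays limits precision. The comparison of groups used limma 3.58.1 (R 4.3.3; two-sided, mean-variance trend, Benjamini-Hochberg over all tested probe sets), without a block. The numbers pair the arrays: after subtraction of group means, the arrays numbered 1, 2 and 3 correlated with their partners at 0.323, 0.21 and 0.272 over probe sets, against -0.187 to -0.0606 for other pairs. That subtraction makes negative values follow from positive ones, so what is shown is only that the positive values fell on the partners. Blocked values therefore stand beside results whose call they change. The fits were also run on simulated arrays with independent noise and no effect shared within an experiment. That run cannot show how the block performs where arrays of an experiment deviate together.

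Members and lists were chosen with earlier results of these data known. Values per array are given for members called in either fit and for the 2 with the smallest p in each role; of further lists, those called and the 2 with the highest mean signal are named. The values per array of RPS27L and of a second probe set of TNFRSF10B fall outside that rule and were given with their values known. Other names are said to have been chosen later. Alternatives covered the block, pseudocount, filter, normalization, variance trend, probe set choice and each array left out. Sequences came from RefSeq tables (GRCh38.p14), which held windows for 21 of the 24 members.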

Additional observations from a re-analysis of the deposited data

How the results depend on the processing

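Over all tested probe sets limma called 84, but 572 with the replicate block, 42 without the filter on dim probe sets, 6 without the mean-variance trend and 48 of 6285 without probe sets of the _s_at and _x_at kinds. With 1 array left out it called between 0 (without zebularine 2, 1315 at an unadjusted p under 0.05) and 96 (without untreated 2). With the replicate block it called 194, 1023 and 335 without experiment 1, 2 and 3. Of the p53 target probe sets 0 were called, 5 with the replicate block, 0 to 1 with 1 array left out, and 1, 7 and 4 with the block and without experiment 1, 2 and 3. Of the p53 target genes 0 were called, 2 with the replicate block, 1 (TP53I3) where probe sets of a gene were averaged, 0 to 1 with 1 array left out, and 0, 4 and 3 with the block and without experiment 1, 2 and 3. The cause of these shifts was not tested, except that leaving out arrays or probe sets leaves fewer values. Without experiment 2 MDM2 was called higher and GADD45A lower beside FAS and TP53I3, at 1.25 and -0.94, and without experiment 3 GDF15 was called at 2.11. Each of these fits had 4 arrays. For GDF15 experiments 1 and 2 gave 0.53 and 3.69, so that call came despite unlike sizes. Without probe sets of the _s_at and _x_at kinds neither FAS nor TP53I3 could be tested. The median over the p53 targets was 0.10, with a range of 0.0028 to 0.22 with 1 array left out and 0.24 with averaged probe sets. The other alternatives (pseudocount, stricter filter, quantile normalization) called 0 p53 targets. Over 406 values of 24 genes under alternatives, 395 stayed on their side of the threshold, 11 passed it and 0 called ones turned sign, while 11 of the 24 genes kept their sign in all of them. Under the stricter filter POLH and PLK3 had no value. Signals near the filter level, such as those of POLH and the dim MDM2 probe sets, limit what these arrays resolve.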

Other observations

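Genes of the ATF4 stress response were chosen after the data were seen. They were chosen for the order of signs over the 3 experiments at the representative probe sets of GADD45A, TNFRSF10B, EI24 and PHLDA3. ASNS, asparagine synthetase, stood at 9353, 1227 and 6368 signal units on untreated arrays 1, 2 and 3, and at 4861, 3352 and 2109 on the treated ones, with differences of -0.94, 1.44 and -1.59. DDIT3, which encodes the transcription factor CHOP, differed by -1.40, 0.74 and -1.51, TRIB3, a pseudokinase gene, by -0.64, 0.69 and -1.87, and ATF3, a stress-induced transcription factor gene, by -1.93, 0.71 and -0.46. For each of these 4 genes untreated array 2 was the lowest untreated array, as it was for 39.2% of all tested genes. Their choice by the order of signs favours this. Limma called none of these genes (adjusted p from 0.611 to 0.84, and from 0.292 to 0.665 with the block). They are given as values only, and their part in the differences of the p53 targets was not tested.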
